A study of Mus musculus with 16 samples.

Results

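Undifferentiated/spindle carcinomas were compared with poorly differentiated carcinomas of mouse skin, 9 of the 16 samples in the series, taken by the histological subtype in their labels. The undifferentiated/spindle group held 6 tumors, namely p53 tumor 3, labelled undifferentiated, and p53 tumor 6 and pRbp53 tumors 1, 2, 3 and 5, labelled spindle cell carcinoma. The poorly differentiated group held 3 tumors, p53 tumors 2, 4 and 5. The remaining 3 tumors, of mixed histology, and 4 control skins did not enter the comparison. The p53 tumors arose in k14Cre;p53loxP/loxP mice and the pRbp53 tumors in k14Cre;p53loxP/loxP;pRbloxP/loxP mice, all of FVB background, whose age is not given in the sources used here. The keratin 14 promoter drives Cre in stratified epithelia, so all 9 tumors share the deletion of p53 there, and 4 of the 6 undifferentiated/spindle carcinomas, but 0 of the 3 poorly differentiated ones, carry that of pRb as well. The question of the comparison was which genes follow histological grade in these tumors.

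Loss of differentiation in carcinomas is often described together with the epithelial-mesenchymal transition (EMT). In epithelium, cells are tied together by adherens junctions built on E-cadherin, by tight junctions built on claudins and by desmosomes, which anchor keratin filaments. Transcription factors of the Snail and ZEB families bind a DNA word called an E-box and can repress E-cadherin and other junction genes, while GRHL, OVOL and ESRP proteins maintain the epithelial state in transcription and splicing. Mesenchymal cells instead carry vimentin, secrete fibrillar collagens and matrix proteases, and move singly. Spindle cell carcinoma is the form of squamous carcinoma whose cells are elongated like fibroblasts.

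Messenger RNA was measured on Affymetrix MOE430 2.0 arrays, 1 per tumor, and each value is a log2 signal after RMA, so that a difference of 1 is a 2-fold change in signal. The array medians of the 9 tumors lay between 5.63 and 5.72, and the signal at the 3' end of actin exceeded that at the 5' end by 0.21 to 0.51, without a tumor that stood apart in either. The table holds no detection calls, and signals of about 3 to 5 lie under every array's median, so a difference against such a level may understate the change. Levels are set side by side only within a gene. Of a gene's probesets, the brightest over all 16 samples was read. Whether each tumor came from a different mouse is not stated in the labels, and the p-values therefore reflect nothing but the spread among the samples, which may be technical. Rb1, the gene of pRb, lay at 7.93, 7.94, 7.67 and 7.85 in pRbp53 tumors 1, 2, 3 and 5 and at 7.66 to 8.50 in the 5 p53 tumors. The place of its probes relative to the deleted part is not given, so Rb1 does not check the genotypes.

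The labels of tissue were set against defining markers before the comparison. Control skin carried basal keratinocyte genes, with Krt5 between 12.72 and 13.04 and Trp63 between 9.85 and 10.51. Among the poorly differentiated carcinomas, p53 tumors 2 and 4 carried them as well, with Krt14 at 12.93 and 12.81, Krt5 at 11.73 and 10.77 and Trp63 at 9.81 and 10.36. In p53 tumor 5 these genes lay under the array's median, at 4.41, 4.76 and 3.84. That tumor was labelled poorly differentiated like the others, and it was rich in Krt8 (12.97), Krt18 (13.22) and the water channel Aqp5 (13.83, against 8.11 and 8.76 in p53 tumors 2 and 4). The 6 undifferentiated/spindle carcinomas lay low in Krt5 (5.05 to 5.72), which squamous epithelium makes in its basal layer, and in Krt14 (4.36 to 6.99).

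All 3 poorly differentiated carcinomas further held genes of a secretory gland. Csn3, the gene of kappa-casein of milk, lay at 11.06, 11.30 and 14.28 in p53 tumors 2, 4 and 5, the order in which values of this group are given throughout. In the undifferentiated/spindle carcinomas Csn3 ran from 3.99 to 9.96 (median 4.42), with 9.96 in p53 tumor 3. Csn2, of beta-casein, lay at 11.65, 8.75 and 13.67, at 10.80 in p53 tumor 3 and between 3.10 and 4.36 in the other 5. Elf5, a transcription factor that mammary alveoli need, lay at 10.20, 9.45 and 12.37 against 3.57 to 5.24 (median 3.82). Control skin 3 carried caseins too, with Csn2 at 9.83 and Csn3 at 10.72. The whole list of 8 milk and mammary genes averaged 6.67 to 10.65 in the poorly differentiated and 4.03 to 7.28 in the undifferentiated/spindle carcinomas, where the high end is p53 tumor 3. Csn1s2a and Wap, other milk genes of the list, were not high in every tumor of the group, at 4.26 and 4.40 in p53 tumor 4. Since Csn3 and Elf5 were higher in each of the 3 poorly differentiated carcinomas than in any of the other 6, grade and glandular content cannot be told apart in the comparison. The markers of p53 tumor 5 in particular go against its label of squamous carcinoma, so the epithelium from which it arose is in doubt, and the tissue of origin of the 9 tumors was not tested.

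**Figure D1:**
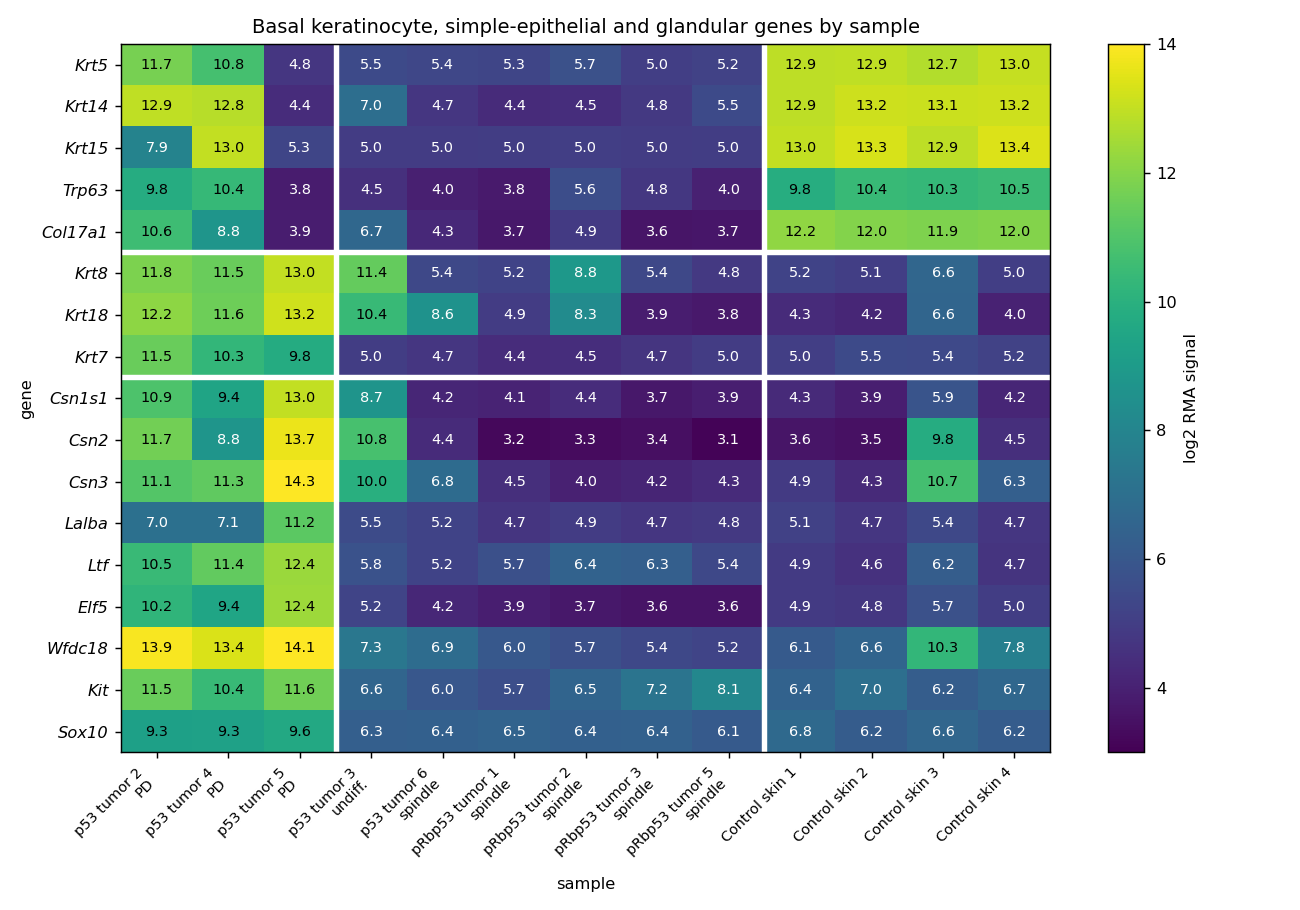
Log2 RMA signal of basal keratinocyte genes (top block), keratins of simple epithelium (middle block) and milk and glandular genes (bottom block) in the 3 poorly differentiated (PD) carcinomas, the 6 undifferentiated/spindle carcinomas and 4 control skins. p53 tumor 5 is low in the basal genes that p53 tumors 2 and 4 carry, and Csn3 is above 9.9 in 4 of the 9 tumors and in control skin 3.

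Of 45037 probesets, 1531 were higher and 1795 lower in the undifferentiated/spindle carcinomas (limma, adjusted p under 0.05). Read per gene, 816 of 18193 rose (4.49%) and 844 fell (4.64%). The groups did not overlap at 1538 genes that lay higher (8.45%) and at 1363 that lay lower (7.49%). The median difference over all genes was 0.02 on the log2 scale. The losses were the deeper ones. Among the genes that passed, 41 fell by over 5 on the log2 scale and 6 rose by as much, and past 3 there were 165 that fell and 93 that rose. The 15 largest falls included Dsp, Esrp1 and Epcam of epithelium, and the 15 largest gains included Mmp9, Mmp3 and Thbs2 of the matrix. The study's t-test was also run, in Welch's form, which lets the groups differ in spread. It is called the methods' t-test below, although the study does not say which form it used. The methods' t-test passed 487 higher and 338 lower probesets, and 38 of the 98 named genes that passed in limma. As these are whole tumors, fewer cells of a type and less RNA per cell cannot be told apart in any of the results.

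**Figure D2:**
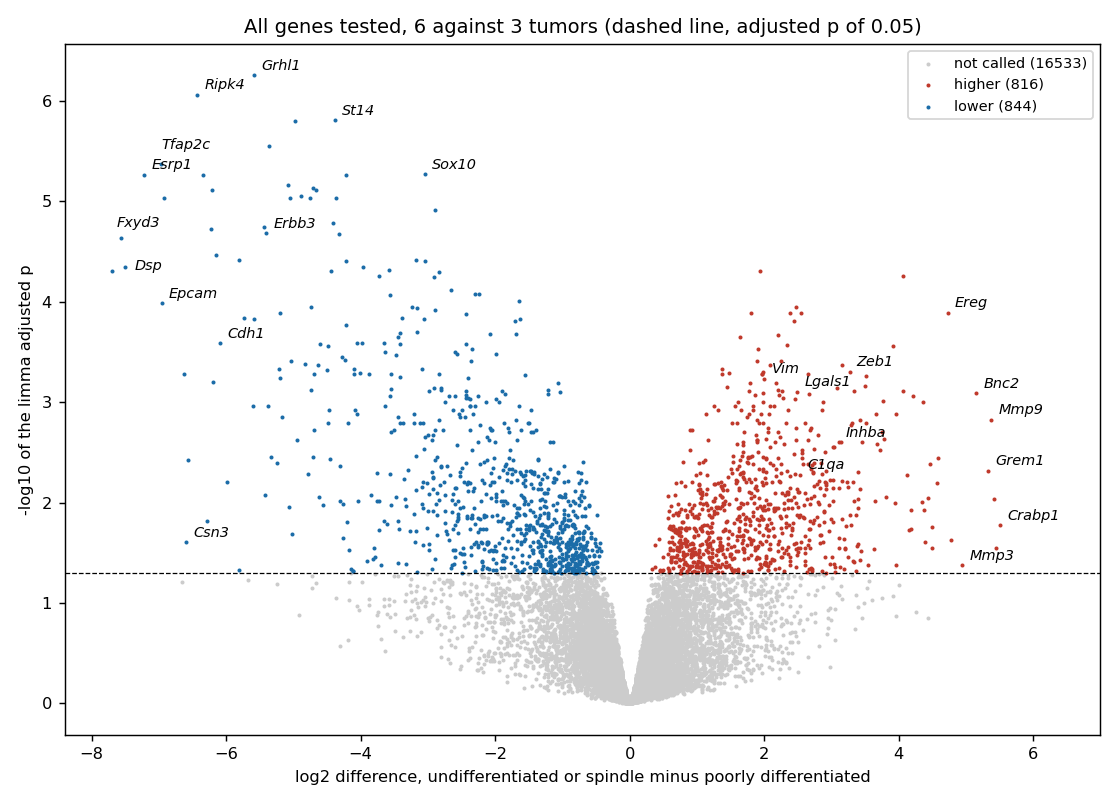
Log2 difference (undifferentiated/spindle minus poorly differentiated) of each of 18193 genes against the -log10 of its adjusted p, 6 against 3 tumors; red, 816 higher; blue, 844 lower; grey, not passing. The largest differences, down to a fall by 7.70, lie on the left, and the genes named there include Dsp, Cdh1 and Epcam of epithelium.

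Genes of adherens and tight junctions fell almost as a whole. Of 19 measured genes 16 fell and 0 rose, where 4.64% of all genes fell, and the list's median difference was -3.44. Cdh1, which encodes E-cadherin, lay at 11.30, 10.97 and 10.62 in the poorly differentiated carcinomas and from 3.91 to 6.48 (median 4.74) in the undifferentiated/spindle ones, whose highest value, in p53 tumor 3, stood over 4 log2 units under the lowest of the others. The fall was by 6.09 ± 0.50 (SE; adjusted p = 2.58e-04). Epcam, an adhesion molecule of epithelial cells, lay at 12.16, 11.65 and 12.93 against 4.81 to 6.87 (median 4.91) and fell by 6.96 ± 0.48 (adjusted p = 1.04e-04). Marveld3, a membrane protein of tight junctions, ran at 8.36, 9.21 and 10.62 against 3.41 to 4.26 (median 3.54). Neither gene's groups overlapped. In the methods' t-test Cdh1 and Epcam kept their calls and Marveld3 did not (adjusted p = 0.1513).

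Of 6 claudins, which seal tight junctions, 5 fell. Cldn7 lay at 10.72, 9.06 and 11.28 in the poorly differentiated carcinomas and ran from 4.01 to 7.06 (median 4.64) in the others, where pRbp53 tumor 2 was the high one. It fell by 5.34 ± 0.72 (adjusted p = 0.0035). Cldn4 fell by 4.08 ± 0.45 (adjusted p = 0.0012), Cldn8 fell by 3.44 ± 0.28 (adjusted p = 2.24e-04), and Cldn1 fell by 4.21 ± 0.80 (adjusted p = 0.0155). Cldn1 was uneven among the undifferentiated/spindle carcinomas, at 7.16 in pRbp53 tumor 5 and between 3.77 and 5.14 in the other 5. In the methods' t-test Cldn7, Cldn4, Cldn8 and Cldn1 did not pass (adjusted p = 0.0818, 0.1353, 0.1484 and 0.0987). Within the list Cdh3, Cldn23 and Myo5b did not pass. When each tumor was left out in turn, 16 to 18 of the 19 passed, and with the p53 tumors alone, 2 against 3, 10 did.

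Promoter windows of Epcam, Dsp, Cldn4 and Cldn7 are shown, picked because they hold an E-box, the word that ZEB and Snail proteins read. Windows without the word are not shown, and a role of these proteins in the falls was not tested. The windows run from 250 bases before to 50 bases after the start of transcription (RefSeq, mouse build GRCm38.p6), and the E-box, searched as CACCTG or CAGGTG so that both strands are covered, is in capitals.
Epcam: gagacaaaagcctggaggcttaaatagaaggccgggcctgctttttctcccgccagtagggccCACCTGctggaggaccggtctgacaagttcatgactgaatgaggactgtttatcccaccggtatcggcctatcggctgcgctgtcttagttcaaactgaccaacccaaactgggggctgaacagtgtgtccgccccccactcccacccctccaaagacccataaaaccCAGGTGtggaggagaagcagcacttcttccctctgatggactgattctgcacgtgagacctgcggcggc
Dsp: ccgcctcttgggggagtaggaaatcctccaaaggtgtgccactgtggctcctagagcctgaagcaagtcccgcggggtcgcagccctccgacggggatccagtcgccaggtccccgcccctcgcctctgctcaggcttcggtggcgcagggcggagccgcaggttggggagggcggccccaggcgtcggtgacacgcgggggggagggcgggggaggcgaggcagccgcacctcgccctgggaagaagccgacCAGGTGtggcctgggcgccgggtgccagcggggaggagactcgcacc
Cldn4: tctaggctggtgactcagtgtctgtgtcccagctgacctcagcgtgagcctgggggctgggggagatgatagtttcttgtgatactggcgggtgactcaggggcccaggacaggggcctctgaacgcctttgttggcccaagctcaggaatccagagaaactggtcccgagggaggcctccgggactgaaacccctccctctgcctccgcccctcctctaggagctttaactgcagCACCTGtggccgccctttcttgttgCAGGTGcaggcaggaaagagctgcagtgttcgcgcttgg
Cldn7: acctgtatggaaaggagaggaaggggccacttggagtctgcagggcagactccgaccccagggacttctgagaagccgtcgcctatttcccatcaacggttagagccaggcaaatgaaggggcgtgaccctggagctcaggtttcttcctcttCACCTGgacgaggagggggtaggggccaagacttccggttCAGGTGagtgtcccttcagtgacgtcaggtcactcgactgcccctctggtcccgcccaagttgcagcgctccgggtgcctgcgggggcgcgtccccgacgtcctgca
The Epcam window lies at chr17:87635729-87636028 on the plus strand and holds 2 E-boxes, which begin 187 and 19 bases before the start. The Dsp window at chr13:38151044-38151343 (plus strand) holds 1, which begins 3 bases past the start. The Cldn4 window at chr5:134946885-134947184 (minus strand) holds 2, 14 bases before and 11 past the start, and the Cldn7 window at chr11:69965171-69965470 (plus strand), 1 of 2 for that gene, holds 2, at 97 and 57 bases before it.

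Across the 4 epithelial lists described here (junctions, desmosome, regulators, and membrane proteases and surface proteins), 25 of the 44 genes that fell had a window in the table, and 17 of the 25 (68.0%) held an E-box in at least 1. Of the 16 genes of the same 4 lists that did not pass, 4 had a window, and 2 of these 4 (50.0%) held an E-box. Whether the word goes with the fall or with being an epithelial gene was not tested. The count was 3 of 23 among the genes that rose in 5 mesenchymal lists, and 22.9% among all genes of the array with a window. The same search gave 37.4% of 658 genes among all that fell and 14.4% of 644 among all that rose. Counted per window, 20.2% of all windows held the word. The mean content of G and C was 53.8% in all windows and 58.4% in those of the array's genes. It was 61.7% in those of the epithelial genes that fell. A match is a description of the sequence and not a sign of binding. Cdh1 had no window in the table.

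Desmosomes followed, with 8 of 13 genes lower and 0 higher (median difference -3.03). Dsp, which encodes desmoplakin, the link from the desmosome to keratin filaments, had the third largest fall of the 844 genes. It lay at 12.34, 11.66 and 10.99 in the poorly differentiated carcinomas and from 3.28 to 5.09 (median 4.17) in the others, a fall by 7.50 ± 0.45 (adjusted p = 4.48e-05). The desmosomal cadherin Dsg2 fell by 6.15 ± 0.35 (adjusted p = 3.41e-05) and Dsc2 fell by 5.20 ± 0.49 (adjusted p = 5.73e-04). Jup, which encodes plakoglobin, lay at 9.70, 12.31 and 9.08 against 5.91 to 7.65 (median 6.60), so that p53 tumor 4 was the high sample. Pkp3, a plakophilin, fell by 3.11 ± 0.36 (adjusted p = 0.0016). Perp, a desmosome protein that is also a target of p53, fell by 5.02 ± 1.02 (adjusted p = 0.0206), and its call was lost without p53 tumor 2 or 4 (adjusted p = 0.0814 and 0.0715).

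The calls of the skin-type desmosome genes turned on p53 tumor 5. Dsc3 lay at 8.68, 7.95 and 4.03 and Dsc1 at 7.06, 6.43 and 3.14 in the poorly differentiated carcinomas, against 3.87 to 3.98 (median 3.94) and 2.84 to 3.23 (median 3.09), and neither passed (adjusted p = 0.0734 and 0.0774). For Dsc1 the value of p53 tumor 5 lay inside the range of the undifferentiated/spindle carcinomas. Pkp1 behaved in the same way at 11.43, 10.74 and 6.92 (adjusted p = 0.0981). Without p53 tumor 5, 12 of the 13 desmosome genes fell, and without p53 tumor 4 only 5 did. Of 9 hemidesmosome genes, which fix the basal layer to its basement membrane, Itgb4 fell by 3.09 ± 0.28 (adjusted p = 4.72e-04) and the laminin chain Lama5 fell by 2.01 ± 0.31 (adjusted p = 0.0062), while Itga6 passed only without p53 tumor 3 among the 9 fits that left out a tumor (adjusted p = 0.1579 with all tumors and 0.0144 without it). Col17a1 lay at 10.59, 8.75 and 3.88 against 3.62 to 6.67 (median 3.99) and did not pass either (adjusted p = 0.1902). Without p53 tumor 5, 4 of the 9 fell and 1 rose.

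**Figure D3:**
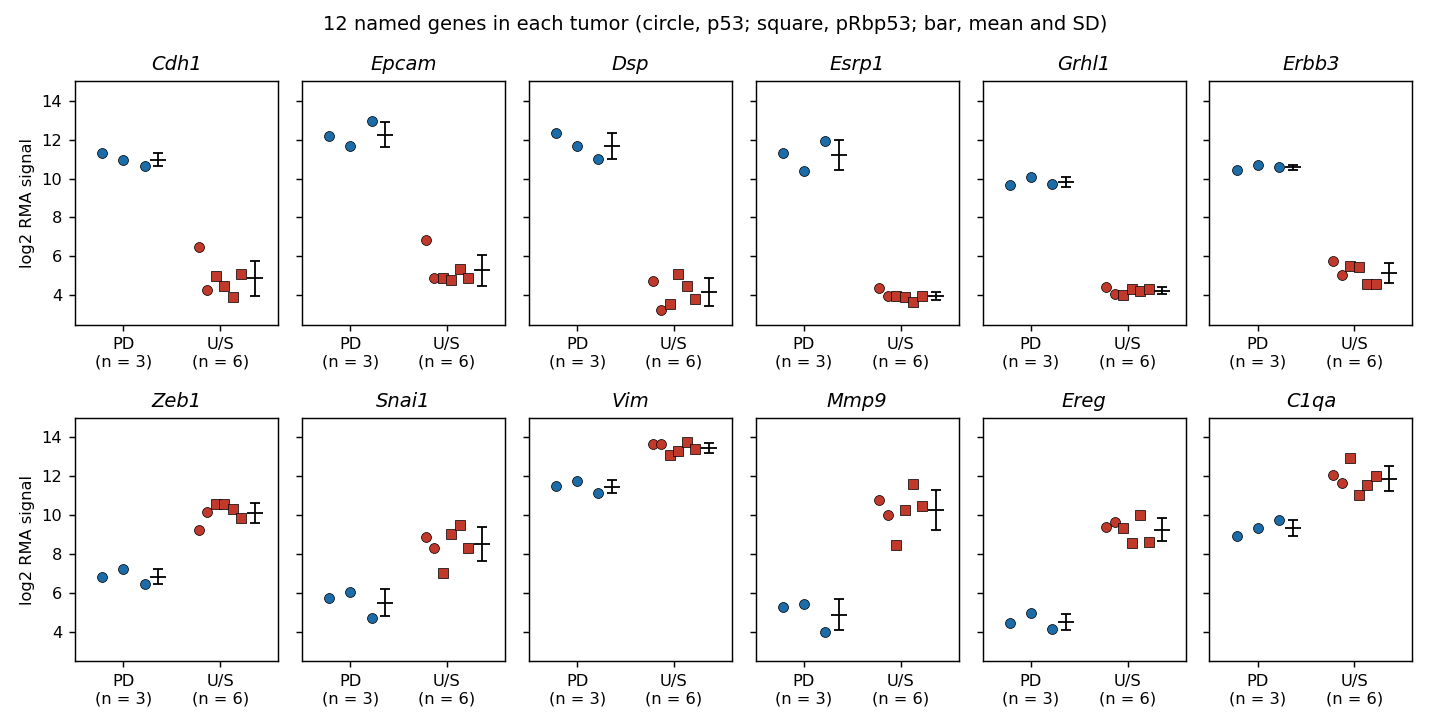
Log2 RMA signal of 12 named genes in the 3 poorly differentiated (PD, blue) and 6 undifferentiated/spindle (U/S, red) carcinomas; circles are p53 and squares pRbp53 tumors, and the bar gives mean and SD. The groups do not overlap at any of the 12, but the genes were picked with their values known. Some, such as Epcam, were named by a rule that required no overlap, so its absence here is not separate evidence. Over all genes the groups do not overlap at 8.45% that lie higher and 7.49% that lie lower. Cdh1 and Epcam are highest in p53 tumor 3 among the undifferentiated/spindle carcinomas.

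Regulators that maintain epithelium fell with the junctions. Of 15 measured genes 9 fell and 0 rose (median difference -2.71), and 9 to 11 passed when each tumor was left out in turn. Grhl1, a grainyhead-like factor of epidermal genes, lay at 9.65, 10.10 and 9.71 against 4.0 to 4.46 (median 4.28) and fell by 5.59 ± 0.14 (adjusted p = 5.56e-07). Esrp1, a splicing regulator that sets epithelial isoforms, lay at 11.29, 10.37 and 11.93 against 3.68 to 4.37 (median 3.97). It fell by 7.22 ± 0.30 (adjusted p = 5.40e-06). The spread within the undifferentiated/spindle carcinomas was small at both genes, and their 6 values lay under the array medians. At Esrp1 the SD was 0.22 there against 0.78 in the poorly differentiated carcinomas. Its call was lost in the methods' t-test (adjusted p = 0.0840), while Grhl1 kept its call.

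Tfap2c, a factor of ectodermal and mammary epithelium, fell by 6.97 ± 0.27 (adjusted p = 4.20e-06), and Ehf, an ETS factor of epithelial cells, fell by 6.93 ± 0.32 (adjusted p = 9.19e-06). Ehf lost its call in the methods' t-test (adjusted p = 0.0858). Esrp2, Grhl2, Ovol1, Ovol2 and Elf3 fell as well, by 1.44 to 4.76. Trp63, the master factor of stratified epithelium, lay at 9.81, 10.36 and 3.84 against 3.78 to 5.61 (median 4.26) and did not pass (adjusted p = 0.1391; 3.58e-04 without p53 tumor 5). Klf4, Klf5, Foxa1, Gata3 and Grhl3 did not pass either. With the p53 tumors alone 6 of the 15 fell.

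Keratins gave a different picture from junctions. All 15 lay lower on average in the undifferentiated/spindle carcinomas (median difference -3.74), yet only Krt7, a keratin of simple and glandular epithelium, passed. It lay at 11.49, 10.30 and 9.76 against 4.38 to 5.0 (median 4.72) and fell by 5.81 ± 0.34 (adjusted p = 3.83e-05). That call was lost in the methods' t-test (adjusted p = 0.1176). Krt8 lay at 11.85, 11.47 and 12.97 in the poorly differentiated carcinomas, at 11.41 in p53 tumor 3, at 8.85 in pRbp53 tumor 2 and between 4.84 and 5.40 in the other 4. Its partner Krt18 followed, with 10.40 in p53 tumor 3 and 3.75 to 8.61 in the others. The epidermal pair Krt5 and Krt14 lay at 11.73, 10.77 and 4.76 and at 12.93, 12.81 and 4.41, so that p53 tumor 5 lay below all 6 undifferentiated/spindle carcinomas at Krt5 and among them at Krt14 (adjusted p = 0.1232 and 0.1329). Krt15 lay at 7.92, 12.97 and 5.32 (adjusted p = 0.1308) and Krt17 at 10.03, 9.87 and 4.16 (adjusted p = 0.0612).

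Without p53 tumor 5, 11 of the 15 keratins passed, all lower, and 8 of the 9 keratinocyte markers against 3 with it. The same held for terminal differentiation. Of 18 genes of the cornified envelope and epidermal differentiation 1 fell, where 4.64% of all genes did. It was Calml3, a calmodulin-like protein of keratinocytes, at 10.49, 9.31 and 5.28 against 3.71 to 4.47 (median 4.23) (adjusted p = 0.0297). Without p53 tumor 5 the count was 10. The call of Calml3 itself was lost in 8 of 9 fits that left out a tumor, all but the fit without p53 tumor 5 (adjusted p = 0.0516 to 0.1168). Of 15 hair shaft and follicle genes 0 passed in limma, with 5 at an unadjusted p under 0.05, and without p53 tumor 5 the count was 5, all lower. The methods' t-test, in Welch's form on the same values, also passed 0 of these 15 and 0 of every other list given below at a count of 0. The largest difference there was that of Dlx3, a homeobox factor, at 7.25, 7.54 and 4.64 against 4.27 to 4.92 (median 4.37) (adjusted p = 0.0653), followed by Tbx1, a T-box factor, at 4.18, 4.48 and 4.42 against 4.20 to 7.25 (median 5.55) (adjusted p = 0.2986).

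**Figure D4:**
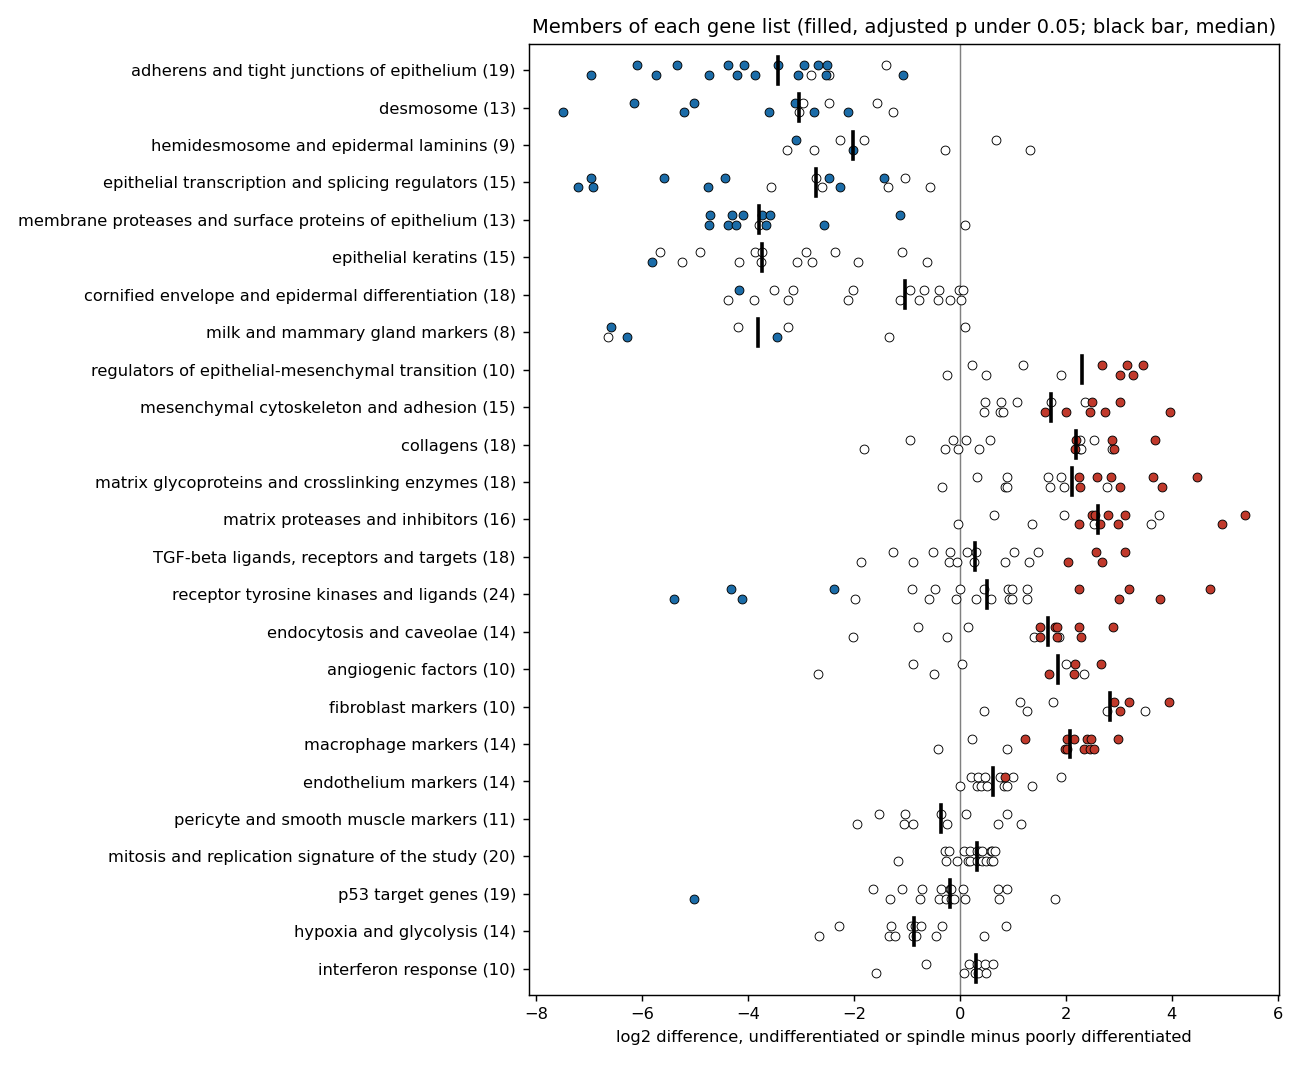
Log2 difference (undifferentiated/spindle minus poorly differentiated) of each measured member of 25 gene lists, with the number of members in brackets; filled points passed an adjusted p of 0.05 (red higher, blue lower), open points did not, and the black bar is the list's median. Junction, regulator and membrane protease lists lie to the left, regulators of the transition, matrix and macrophage lists to the right, and mitosis, p53 target, hypoxia and interferon lists have medians from -0.86 to 0.33.

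Surface proteins and membrane proteases of epithelium fell in 11 of 13 cases (median difference -3.79), and 11 or 12 passed whichever tumor was left out. St14, which encodes the protease matriptase, lay at 9.89, 9.57 and 9.66 against 5.16 to 5.67 (median 5.23), a fall by 4.38 ± 0.14 (adjusted p = 1.56e-06). Its inhibitor Spint1 lay at 9.62, 9.04 and 9.82 against 4.09 to 7.32 (median 4.91) and fell by 4.31 ± 0.61 (adjusted p = 0.0043), with the high value in p53 tumor 3. The vesicle traffic protein Rab25 fell by 4.74 ± 0.33 (adjusted p = 1.12e-04) and the surface protein Cdcp1 fell by 4.71 ± 0.20 (adjusted p = 7.44e-06). Rab25 and Cdcp1 lost their calls in the methods' t-test (adjusted p = 0.0847 and 0.0554). Cd24a and Cdh16 did not pass.

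The genes with the largest falls joined these epithelial genes to glandular ones. Wfdc18, a small protein of the whey acidic protein family, lay at 13.90, 13.37 and 14.08 against 5.25 to 7.34 (median 5.85) and fell by 7.70 ± 0.47 (adjusted p = 4.97e-05). Fxyd3, a regulator of the sodium pump, lay at 12.99, 12.53 and 13.25 against 4.35 to 6.52 (median 5.28) and fell by 7.57 ± 0.40 (adjusted p = 2.33e-05). Fxyd3 was high in control skin as well (mean 12.42), whereas Wfdc18 was not (mean 7.68) except in control skin 3, at 10.30. Ripk4, a kinase needed for keratinocyte differentiation, fell by 6.43 ± 0.19 (adjusted p = 8.62e-07) and Pof1b, an actin-binding protein of epithelium, fell by 6.35 ± 0.26 (adjusted p = 5.40e-06). Plet1, a surface protein of epithelial progenitors, lay at 11.62, 9.87 and 12.61 against 3.94 to 7.68 (median 4.21), with 7.68 in p53 tumor 3. The potassium channel Kcnk1 fell by 6.22 ± 0.32 (adjusted p = 1.87e-05) and the transcriptional coactivator Cited4 fell by 6.21 ± 0.27 (adjusted p = 7.69e-06). In the methods' t-test Pof1b, Plet1, Kcnk1 and Cited4 did not pass (adjusted p = 0.0913, 0.0746, 0.1115 and 0.0631).

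Elf5 fell by 6.63 ± 0.62 (adjusted p = 5.19e-04), Csn3 fell by 6.59 ± 1.40 (adjusted p = 0.0248) and Csn1s1, of alpha-casein, fell by 6.28 ± 1.19 (adjusted p = 0.0153). None of them passed in the methods' t-test (adjusted p = 0.1587, 0.1037 and 0.1255). Lalba, which encodes alpha-lactalbumin, lay at 7.04, 7.07 and 11.21 against 4.68 to 5.52 (median 4.88) (adjusted p = 0.0403). These 3 milk genes (Csn3, Csn1s1 and Lalba) were the members of the list of 8 that passed, and Csn2 did not. The count ran from 1, without p53 tumor 2 or pRbp53 tumor 1 or 5, to 4, without p53 tumor 4. The call of Csn1s1 was lost without p53 tumor 2 (adjusted p = 0.0508). That of Csn3 was lost in 5 of 9 such fits (adjusted p = 0.0509 to 0.0724), all but those without p53 tumor 3 or 6 or pRbp53 tumor 2 or 3. Lalba lost its call without any 1 of the 6 undifferentiated/spindle carcinomas (adjusted p = 0.0586 to 0.0801). Genes that other lists carry as cell markers moved with them. Kit, the stem cell factor receptor, which mast cells and secretory epithelium express, lay at 11.47, 10.42 and 11.60 against 5.65 to 8.08 (median 6.55) (adjusted p = 0.0016), while the other 7 mast cell markers did not pass. Sox10, a factor of neural crest cells and of glands, lay at 9.26, 9.31 and 9.64 against 6.13 to 6.50 (median 6.36) (adjusted p = 5.36e-06), and none of the other 6 melanocyte markers passed. Mbp, of Schwann cells, and Scd1, a desaturase of sebaceous cells, fell by 1.46 ± 0.16 (adjusted p = 0.0012) and by 2.74 ± 0.52 (adjusted p = 0.0159). The call of Mbp was lost over the mean of its probesets (adjusted p = 0.1862).

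In the other direction, regulators of EMT rose. Of 10 measured 5 rose and 0 fell, where 4.49% of all genes rose, and the list's median was 2.30. Zeb1, a zinc finger repressor of Cdh1, lay at 6.84, 7.22 and 6.48 in the poorly differentiated and from 9.26 to 10.58 (median 10.22) in the undifferentiated/spindle carcinomas. It rose by 3.27 ± 0.30 (adjusted p = 4.98e-04), a 9.64-fold change. Its relative Zeb2 lay at 5.86, 7.62 and 6.08 against 8.45 to 9.98 (median 9.10) and rose by 2.69 ± 0.45 (adjusted p = 0.0091). Snai1, which encodes Snail, lay at 5.74, 6.05 and 4.73 against 7.06 to 9.49 (median 8.61) and rose by 3.02 ± 0.51 (adjusted p = 0.0097). In p53 tumor 7, of mixed histology, Snai1 lay at 4.77, and in pRbp53 tumor 4, also mixed, at 9.56.

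Prrx1, a homeobox factor of mesenchyme, lay at 8.29, 7.92 and 6.52 against 10.30 to 11.97 (median 11.01) and rose by 3.46 ± 0.44 (adjusted p = 0.0025). Twist2, a helix-loop-helix factor of dermis, rose by 3.16 ± 0.59 (adjusted p = 0.0145), and its call was lost without p53 tumor 4 (adjusted p = 0.0553). Snai2, Twist1, Tcf3, Tcf4 and Foxc2 did not pass. Snai2, which encodes Slug, lay at 10.77 and 11.35 in p53 tumors 2 and 4, at 6.23 in p53 tumor 5 and between 7.84 and 10.75 in the undifferentiated/spindle carcinomas, so that the groups overlapped. With the p53 tumors alone Zeb1 and Twist2 passed (adjusted p = 0.0432 and 0.0264) and the other 3 did not (adjusted p = 0.0563 for Snai1, 0.1222 for Zeb2 and 0.0782 for Prrx1).

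**Figure D5:**
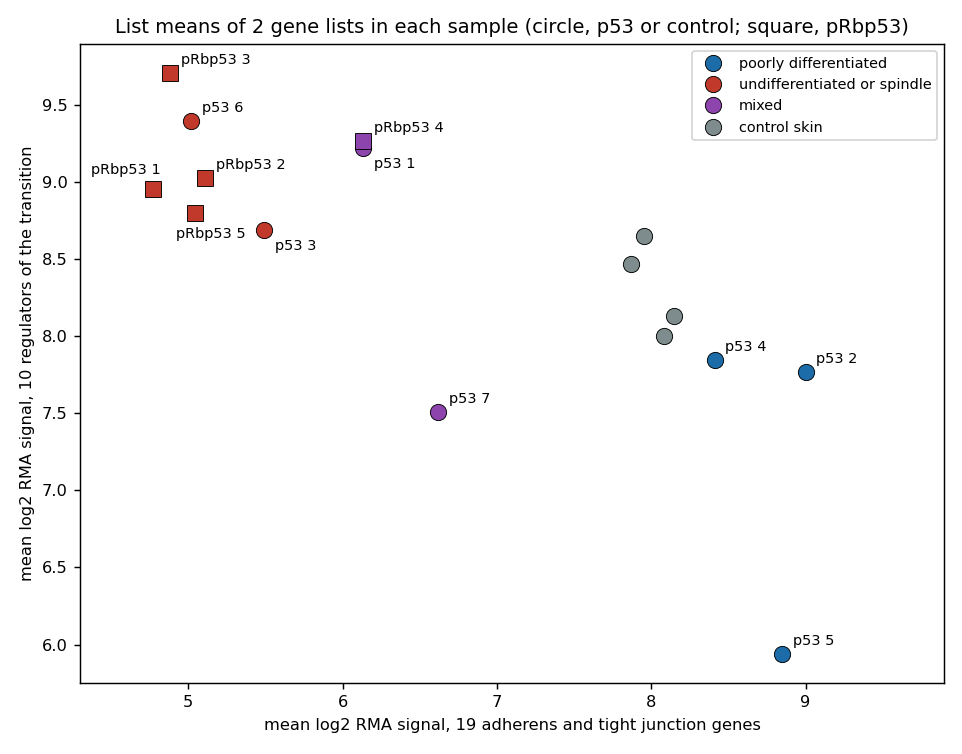
Mean log2 RMA signal of 19 adherens and tight junction genes (x axis) against that of 10 regulators of EMT (y axis) in the 16 samples, coloured by group. The undifferentiated/spindle carcinomas lie at 4.77 to 5.49 on the junction axis and the poorly differentiated ones at 8.41 to 9.0, with the 3 mixed tumors at 6.13 to 6.62 and the control skins at 7.87 to 8.15.

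Cytoskeletal and adhesion genes of mesenchyme rose in 7 of 15 cases and fell in 0 (median difference 1.72). Vim, which encodes vimentin, the intermediate filament of mesenchymal cells, lay at 11.49, 11.78 and 11.13 against 13.08 to 13.75 (median 13.53) and rose by 2.0 ± 0.19 (adjusted p = 5.86e-04). Lgals1, a galectin of stroma, ran within a narrow band of 14.05 to 14.23 (median 14.20) in the undifferentiated/spindle carcinomas, against 11.75, 12.35 and 10.95, and rose by 2.49 ± 0.25 (adjusted p = 7.83e-04). The fibronectin receptor chain Itga5 rose by 2.74 ± 0.52 (adjusted p = 0.0149), and Cdh11, a cadherin of mesenchyme, by 3.03 ± 0.58 (adjusted p = 0.0157). S100a4, a calcium-binding protein of motile cells, lay at 10.89, 9.08 and 6.08 against 11.43 to 13.77 (median 12.62), and its call (adjusted p = 0.0421) was lost in 7 of 9 fits that left out a tumor, all but those without p53 tumor 2 or 3 (adjusted p = 0.0617 to 0.1033). Cdh2, the N-cadherin gene whose gain is a usual mark of EMT, did not pass. It lay at 6.36, 4.09 and 3.54 against 6.51, 8.47, 6.74, 8.58, 3.23 and 8.64 in p53 tumors 3 and 6 and pRbp53 tumors 1, 2, 3 and 5, so pRbp53 tumor 3, a spindle carcinoma, had the lowest value of the 9. Cdh2 is named after its values were seen. Without p53 tumor 5, 4 of the 15 cytoskeletal genes passed.

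Among 18 collagens 5 rose and 0 fell (median difference 2.19). Another 5 lay lower on average without passing, by up to 1.82. Col5a1, a regulatory chain of fibrils, lay at 7.74, 9.10 and 7.19 against 11.06 to 12.59 (median 11.61) and rose by 3.68 ± 0.47 (adjusted p = 0.0026). Col6a1, of collagen VI, rose by 2.88 ± 0.61 (adjusted p = 0.0247), and its partner Col6a2 lay at 9.61, 10.50 and 8.39 against 10.30 to 13.08 (median 12.38) without passing (adjusted p = 0.0667), although it passed without p53 tumor 6 (0.0330). The chains of collagen I, Col1a1 and Col1a2, rose by 2.91 ± 0.67 (adjusted p = 0.0346) and by 2.20 ± 0.49 (adjusted p = 0.0306). In both, p53 tumor 5 was the low sample, at 8.47 and 10.36. Col4a1 and Col4a2, of basement membrane, did not pass. The calls of Col1a1 and Col1a2 were lost in 7 of 9 fits that left out a tumor, all but those without p53 tumor 4 or 3 (adjusted p = 0.0503 to 0.0970), and that of Col6a1 without p53 tumor 2, pRbp53 tumor 1 or pRbp53 tumor 5 (adjusted p = 0.0508 to 0.0584). The count fell to 2 of 18 without p53 tumor 2 or without pRbp53 tumor 5, to 3 without p53 tumor 5, pRbp53 tumor 1 or pRbp53 tumor 2, and to 0 in limma with the p53 tumors alone (4 at an unadjusted p under 0.05).

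Matrix glycoproteins and crosslinking enzymes rose in 8 of 18 cases and fell in 0 (median difference 2.11). Thbs2, a thrombospondin, lay at 7.11, 7.85 and 6.72 against 10.24 to 12.89 (median 11.78) and rose by 4.47 ± 0.62 (adjusted p = 0.0041). Loxl1, which crosslinks elastin, rose by 3.81 ± 0.63 (adjusted p = 0.0087), and Tnc, which encodes tenascin C of wounds and tumor stroma, lay at 9.06, 9.49 and 6.70 against 10.92 to 12.59 (median 12.29) and rose by 3.65 ± 0.62 (adjusted p = 0.0096). Dcn, the proteoglycan decorin, rose by 3.02 ± 0.48 (adjusted p = 0.0072). Fibroblast markers moved with these genes. Of 10, 4 rose and 0 fell (median difference 2.84), and their mean signal ran from 7.26 to 8.34 in the poorly differentiated and from 9.49 to 12 in the undifferentiated/spindle carcinomas. Cxcl12, a chemokine of stroma, lay at 6.71, 7.37 and 6.84 against 9.29 to 12.13 (median 11.37) (adjusted p = 0.0101), and Pdgfra, a receptor of fibroblasts, at 10.24, 10.27 and 6.59 against 11.64 to 13.17 (median 12.01) (adjusted p = 0.0457). The call of Pdgfra was lost in 8 of 9 fits that left out a tumor, all but that without p53 tumor 5 (adjusted p = 0.0523 to 0.0856). The count of fibroblast markers fell to 2 without p53 tumor 2, p53 tumor 6 or any of the 4 pRbp53 tumors. Col1a1, Dcn and Pdgfra stand on other lists too, and the part of stromal fibroblasts in the matrix results was not tested.

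Matrix proteases and their inhibitors rose in 9 of 16 cases and fell in 0 (median difference 2.60). Mmp9, a gelatinase, lay at 5.27, 5.42 and 3.99 against 8.47 to 11.61 (median 10.39) and rose by 5.38 ± 0.62 (adjusted p = 0.0015). Mmp3, which encodes stromelysin 1, lay at 5.32, 7.20 and 5.99 against 8.29 to 13.77 (median 10.69), with p53 tumor 3 and pRbp53 tumor 3 above 13.5. It rose by 4.94 ± 1.20 (adjusted p = 0.0421), a call that was lost in 8 of 9 fits that left out a tumor, all but that without pRbp53 tumor 1 (adjusted p = 0.0543 to 0.1358). Timp1, an inhibitor of metalloproteinases, rose by 3.12 ± 0.49 (adjusted p = 0.0071), and Adam19, a membrane protease that sheds growth factors, by 2.99 ± 0.56 (adjusted p = 0.0147; 0.0580 without p53 tumor 2). The collagenase Mmp13 did not pass. The list's count fell to 5 without p53 tumor 2, to 4 without p53 tumor 4 and to 5 without pRbp53 tumor 3 or 5.

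The Mmp3 promoter is shown for its AP-1 site, a word read by Fos and Jun proteins, searched as TGANTCA, which reads the same on both strands, and set in capitals.
Mmp3: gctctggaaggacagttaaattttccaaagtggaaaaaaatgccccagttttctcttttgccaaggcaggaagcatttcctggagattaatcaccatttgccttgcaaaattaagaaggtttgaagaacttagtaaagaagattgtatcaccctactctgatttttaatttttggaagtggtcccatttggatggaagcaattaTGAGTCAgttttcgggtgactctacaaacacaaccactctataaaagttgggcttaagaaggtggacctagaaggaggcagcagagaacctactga
The window lies at chr9:7445572-7445871 (plus strand, GRCm38.p6), and the word begins 46 bases before the start. Among genes of the 5 mesenchymal lists that rose, 5 of 23 with a window (21.7%) held this word, against 7.5% of all genes of the array with a window and 3 of the 25 epithelial genes that fell. The share was 8.2% of 644 among all genes that rose and 9.1% of 658 among all that fell, so it did not follow direction there.

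The other genes with the largest gains had mixed roles. Crabp1, a retinoic acid binding protein, lay at 5.38, 6.11 and 4.82 against 7.62 to 12.95 (median 11.55) and rose by 5.51 ± 1.07 (adjusted p = 0.0169). Grem1, which encodes the BMP antagonist gremlin, lay at 4.22, 5.05 and 5.06 against 8.39 to 11.90 (median 9.61) and rose by 5.33 ± 0.76 (adjusted p = 0.0048). Cnr1, the cannabinoid receptor of the nervous system, lay near 3.5 in the poorly differentiated carcinomas (3.53, 3.55 and 3.37) and ran from 6.26 to 10.86 (median 9.15) in the others. Bnc2, a zinc finger protein, rose by 5.15 ± 0.52 (adjusted p = 8.16e-04), and all 3 mixed tumors and control skin held it too, at 9.58 to 11.11 and a mean of 8.15.

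Lrrc17, Itm2a and Steap2 rose by 4.58 ± 0.62 (adjusted p = 0.0036), 4.57 ± 0.70 (adjusted p = 0.0064) and 4.44 ± 0.74 (adjusted p = 0.0091). Steap2, a metalloreductase, lay low in control skin (mean 4.96), unlike Itm2a (mean 11.33). Brinp3, Efemp1, a fibulin, C1qtnf3 and Abi3bp had broad ranges among the undifferentiated/spindle carcinomas, 5.06 to 11.43 (median 8.74) for Brinp3, and rose by 5.45, 4.78, 4.50 and 4.49 (adjusted p = 0.0286, 0.0238, 0.0281 and 0.0177). Several of these calls hung on single tumors. Crabp1 lost its call without p53 tumor 2 (adjusted p = 0.0582), Abi3bp without p53 tumor 4 (0.0717), Efemp1 without p53 tumor 2 or 4 (0.0788 and 0.0877), C1qtnf3 without p53 tumor 2 or 4 or pRbp53 tumor 5 (0.0607 to 0.1062), and Brinp3 in 6 of 9 fits, all but those without p53 tumor 6 or pRbp53 tumor 2 or 5 (0.0512 to 0.0891).

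Growth factor signalling changed in both directions, with 5 of 24 receptor tyrosine kinases and ligands higher and 4 lower (median difference 0.52). The losses included a pair of ErbB receptors. Erbb3, a receptor for neuregulins, lay at 10.42, 10.68 and 10.60 against 4.59 to 5.79 (median 5.25) and fell by 5.40 ± 0.28 (adjusted p = 2.08e-05). Its partner Erbb2 lay at 10.58, 11.43 and 10.69 against 6.18 to 6.94 (median 6.54) and fell by 4.32 ± 0.23 (adjusted p = 2.12e-05). In the methods' t-test Erbb3 kept its call and Erbb2 did not (adjusted p = 0.0545). Egfr, the founding receptor of the family, did not pass. Of its ligands, Ereg, which encodes epiregulin, lay at 4.46, 4.99 and 4.16 against 8.58 to 9.99 (median 9.38) and rose by 4.73 ± 0.34 (adjusted p = 1.29e-04), while Tgfa, at 9.46, 10.66 and 8.18 against 4.01 to 8.66 (median 4.54), was lower (adjusted p = 0.0479). The groups overlapped at Tgfa through p53 tumor 3, at 8.66, and its call was lost in 8 of 9 fits that left out a tumor, all but that without p53 tumor 3 (adjusted p = 0.0507 to 0.1718). Ddr2, the collagen receptor of mesenchyme, rose and Ddr1, that of epithelium, fell, by 3.77 and by 2.37.

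On the list of TGF-beta ligands, receptors and targets 4 of 18 genes rose and 0 fell (median difference 0.29). Inhba, the activin chain, lay at 7.98, 7.80 and 6.41 against 9.93 to 11.26 (median 10.53) and rose by 3.11 ± 0.39 (adjusted p = 0.0025). Ltbp1, which holds latent TGF-beta in the matrix, rose by 2.69 ± 0.38 (adjusted p = 0.0046), and Bmp1, a protease that matures collagen, by 2.57 ± 0.36 (adjusted p = 0.0041). Tgfbr2, a receptor chain, lay at 9.92, 9.91 and 10.20 against 11.02 to 12.87 (median 11.96) (adjusted p = 0.0167), and its call was lost without p53 tumor 2 or 4 (adjusted p = 0.0599 and 0.0642). The 3 TGF-beta ligands Tgfb1, Tgfb2 and Tgfb3 did not pass. Of 12 Notch pathway genes 1 fell and 1 rose, where 4.64% of all genes fell and 4.49% rose. The receptor Notch3 fell by 2.55 ± 0.46 (adjusted p = 0.0129) and Notch2 rose by 1.05 ± 0.21 (adjusted p = 0.0181, and 0.0748 without p53 tumor 4). Without p53 tumor 5, 3 Notch genes fell. Of 11 interleukin-1 genes 0 passed in limma (1 at an unadjusted p under 0.05), with Il1b at 5.42, 5.93 and 5.32 against 5.90 to 9.47 (median 7.41) (adjusted p = 0.1335) and the decoy receptor Il1r2 at 6.46, 6.44 and 5.07 against 5.94 to 10.14 (median 7.88) (adjusted p = 0.2357).

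Endocytosis and caveolar genes rose in 8 of 14 cases and fell in 0 (median difference 1.66). Of the 14, 3 lay lower on average without passing, by up to 2.02. Dab2, a clathrin adaptor, lay at 7.69, 8.66 and 9.18 against 10.21 to 11.09 (median 10.75) and rose by 2.25 ± 0.31 (adjusted p = 0.0041). Mrc2, an endocytic collagen receptor, rose by 2.89 ± 0.52 (adjusted p = 0.0122), and Cavin1, a coat protein of caveolae, by 1.83 ± 0.25 (adjusted p = 0.0041). Lrp1, a scavenger receptor, lay at 8.77, 8.90 and 6.59 against 9.68 to 11.12 (median 10.40) (adjusted p = 0.0320) and lost its call without p53 tumor 6 or any of the 4 pRbp53 tumors (adjusted p = 0.0545 to 0.0631). Without p53 tumor 5 the list's count was 5.

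Of 10 angiogenic factors 4 rose and 0 fell (median difference 1.85). On this list 3 genes lay lower on average without passing, by up to 2.67. The semaphorin and VEGF coreceptor Nrp2 lay at 7.29, 7.49 and 6.44 against a narrow 9.06 to 9.37 (median 9.27) and rose by 2.18 ± 0.21 (adjusted p = 6.40e-04), and Nrp1 rose by 1.68 ± 0.29 (adjusted p = 0.0104). Angptl4, an angiopoietin-like inhibitor of lipase, rose by 2.66 ± 0.53 (adjusted p = 0.0184), and its call was lost without p53 tumor 4 or 5 (adjusted p = 0.0577 and 0.0554). Vegfd rose by 2.15 (adjusted p = 0.0371), a call lost in 8 of 9 fits, all but that without p53 tumor 3 (adjusted p = 0.0528 to 0.1046). Vegfa did not pass, and the count of the list fell to 2 without p53 tumor 4 or 5. Of 14 endothelial markers 1 was higher, where 4.49% of all genes were (median difference 0.63). That gene was Pecam1, at 6.83, 6.71 and 6.64 against 7.03 to 7.90 (median 7.57) (adjusted p = 0.0268), whose call was lost without p53 tumors 2, 4 or 5 or pRbp53 tumor 5 (adjusted p = 0.0517 to 0.0889). The count was 2 without p53 tumor 3, pRbp53 tumor 1 or pRbp53 tumor 2. Of 11 pericyte and smooth muscle markers 0 passed in limma (3 at an unadjusted p under 0.05), the largest difference being that of Rgs5, at 11.02, 10.75 and 10.01 against 6.52 to 9.33 (median 9.06) (adjusted p = 0.0956), followed by Lmod1 (adjusted p = 0.0856). Rgs5 passed, lower, without pRbp53 tumor 3 (adjusted p = 0.0166), and Lmod1 without p53 tumor 4 (0.0173).

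Macrophage markers rose as a group, 11 of 14 with 0 lower (median difference 2.08), and their mean signal did not overlap, at 7.62 to 8.28 against 8.98 to 10.42. C1qa, a chain of complement C1q that tissue macrophages make, lay at 8.94, 9.32 and 9.76 against 11.04 to 12.93 (median 11.85) and rose by 2.53 ± 0.37 (adjusted p = 0.0053). C1qc rose by 2.46 ± 0.36 (adjusted p = 0.0052) and the lysozyme Lyz2 by 2.48 ± 0.29 (adjusted p = 0.0018). Mrc1, the mannose receptor, lay at 6.46, 8.43 and 7.32 against 8.08 to 11.46 (median 10.72) (adjusted p = 0.0410), where pRbp53 tumor 2 at 8.08 lay below p53 tumor 4. Its call was lost in 8 of 9 fits that left out a tumor, all but that without pRbp53 tumor 2 (adjusted p = 0.0547 to 0.1422). Without p53 tumor 2 or without p53 tumor 4, 6 of the 14 markers passed. The part of macrophages in the other results was not tested.

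Markers of other leukocytes did not pass in limma. The counts were 0 of 7 neutrophil, 0 of 8 T and NK cell, 0 of 6 B cell and 0 of 10 Langerhans and dendritic cell markers, and at an unadjusted p under 0.05 they were 2, 0, 1 and 0. S100a9, an alarmin of neutrophils, lay at 10.31, 9.92 and 4.40 against 8.61 to 11.75 (median 10.47) (adjusted p = 0.4315). The class II gene H2-Aa lay at 9.26, 7.79 and 11.29 against 7.13 to 11.72 (median 11.43) (adjusted p = 0.5965), with the lowest value in p53 tumor 6, and H2-Ab1 had an adjusted p of 0.5842. Among lymphocyte genes Gzmb, Cd3d, Ighm and Jchain had adjusted p of 0.7097, 0.4714, 0.1960 and 0.4611. Skeletal muscle and fat, which neighbour tumors in skin, gave 0 of 14 and 0 of 9, with 0 and 0 at an unadjusted p under 0.05. Muscle genes were uneven within the undifferentiated/spindle carcinomas, with Myh1 at 10.66 in pRbp53 tumor 5 and 8.99 in pRbp53 tumor 2 and at 3.51 to 5.94 in the other 4, and Ttn at 9.60 and 9.54 in the same pair (adjusted p = 0.6695 and 0.3673). The fat genes Car3 and Plin4 had adjusted p of 0.7613 and 0.5402.

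Of the 20 genes of mitosis and replication that the study used as its signature 0 passed in limma (median difference 0.33), with 1 at an unadjusted p under 0.05. Top2a, which encodes topoisomerase II, lay at 11.84, 13.07 and 9.66 against 8.73 to 11.39 (median 10.38) (adjusted p = 0.4564), and Ccna2, of cyclin A, at 9.60, 9.06 and 9.17 against 8.12 to 11.06 (median 10.07) (adjusted p = 0.5920). The groups overlapped at all 20. With the p53 tumors alone 2 of the 20 rose, Ccna2 among them (adjusted p = 0.0429). Of 12 CDK inhibitors and G1 cyclins 0 passed (4 at an unadjusted p under 0.05). Cdkn2a, the locus of p16 and p19ARF, lay at 5.81, 7.53 and 4.10 against 7.52 to 9.09 (median 8.23) (adjusted p = 0.0558). Cdkn2a passed, higher, without p53 tumor 4 (adjusted p = 0.0151), on the brighter probesets (0.0295) and over the mean of its probesets (0.0470). Ccnd2, a cyclin D, lay at 11.10, 12.66 and 6.84 against 7.09 to 10.84 (median 8.44) (adjusted p = 0.5253). Of 19 p53 target genes Perp alone passed, lower, where 4.64% of all genes fell. Without p53 tumor 5, 3 of the 19 fell and 1 rose. Of 14 hypoxia and glycolysis genes 0 passed (7 at an unadjusted p under 0.05), and 12 lay lower on average (median difference -0.86). At 3 of the 14 the groups did not overlap, each lower, where 7.49% of all genes lay lower without overlap. Among these was Egln3, an oxygen sensor, at 11.19, 11.61 and 12.03 against 6.90 to 10.99 (median 8.96) (adjusted p = 0.0643). Egln3 passed, lower, without pRbp53 tumor 3 (adjusted p = 0.0187), with all 16 arrays (0.0372), on the brighter probesets (0.0342), over the mean of its probesets (0.0364) and with the p53 tumors alone (0.0499). Car9, a carbonic anhydrase, had an adjusted p of 0.1598. Of 10 interferon response genes 0 passed (1 at an unadjusted p under 0.05), with Irf7 between 6.57 and 7.70 in 7 tumors, at 10.44 in p53 tumor 5 and at 10.24 in p53 tumor 3 (adjusted p = 0.7760), and Irgm1 at an adjusted p of 0.1253. A difference that did not pass at 6 against 3 tumors is not shown to be absent.

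The study named 9 genes as higher and 13 as lower in undifferentiated/spindle carcinomas, and since it chose them partly on these samples, they are not independent evidence of direction. Of the 9, 8 rose (all but Col6a2), with a median of 2.69, and without p53 tumor 2 the count was 5. Of the 13, 9 fell (all but Krt17, Pkp1, Dsc1 and Dsc3), with a median of -3.61, and without p53 tumor 5 all 13 did.

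Grade could not be separated fully from genotype and sex. All 3 poorly differentiated carcinomas were p53 tumors, and with the 5 p53 tumors alone, 2 against 3, 480 probesets were higher and 347 lower. All 1660 genes that passed kept their direction there, and 312 passed again. The groups did not overlap at 806 of the genes that rose and 821 of those that fell, so their direction there was fixed in advance. With genotype as a covariate 788 passed again. As no poorly differentiated carcinoma was a pRbp53 tumor, the difference in that fit equals the one with the p53 tumors alone. At Zeb1, for example, it was 2.85 in each. Only the estimate of error differs, so the covariate is not a separate check of direction. In the settings given here, counts moved less for junction genes than for matrix genes. The adherens and tight junction genes averaged 4.77 to 5.49 in the undifferentiated/spindle carcinomas, under the array medians. The part of these low levels in the counts was not tested. With the covariate 16 of 19 adherens and tight junction genes and 9 of 15 epithelial regulators fell, against 1 of 18 collagens, 4 of 18 matrix glycoproteins and 4 of 16 proteases and inhibitors that rose. Xist, which female cells transcribe from the inactive X chromosome, lay at 11.66 to 12.19 in the poorly differentiated carcinomas, at 11.40, 12.03 and 9.26 in p53 tumor 3 and pRbp53 tumors 2 and 3, and at 5.26 to 5.96 in the remaining 3, where the Y-linked Eif2s3y lay at 8.56, 5.65 and 8.30. With the 3 undifferentiated/spindle carcinomas that had Xist above 9 against the 3 poorly differentiated ones, 397 probesets were higher and 404 lower. In that setting 14 of 19 junction genes still fell, while 0 of 18 collagens and 0 of 18 matrix glycoproteins rose in limma (10 and 11 at an unadjusted p under 0.05), with medians of 2.16 and 2.12.

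The undifferentiated/spindle carcinomas were not uniform. At the 1660 genes that passed, the tumor nearest to the poorly differentiated group was pRbp53 tumor 2 in 374 cases and p53 tumor 3 in 368, and pRbp53 tumor 5 in 177. For p53 tumor 3, the undifferentiated one, 204 of these were genes that fell, and among them stood Cdh1, Epcam, Plet1, Spint1 and Pkp3. For pRbp53 tumor 2, 242 were genes that rose. The mixed tumors, which played no part in choosing these genes, spread between the groups. p53 tumor 1 lay nearer to the undifferentiated/spindle mean at 77.6% of the genes that fell and 81.5% of those that rose, and p53 tumor 7 at 45.1% and 35.3%. In p53 tumor 7 the actin signal at the 3' end exceeded that at the 5' end by 1.67, in control skin 3 by 1.33 and in pRbp53 tumor 4 by 0.68, against 0.21 to 0.51 in the 9 tumors compared, and the part of RNA quality in these shares was not tested. pRbp53 tumor 4 lay nearer at 68.8% of the genes that fell and 40.1% of those that rose. Control skin lay nearer to the undifferentiated/spindle mean at 41.1% to 45.5% of the genes that fell and 45.5% to 55.4% of those that rose.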

How the data were processed

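Total RNA of 12 tumors and 4 control skins was hybridised to MOE430 2.0 arrays, and the deposited values are log2 signals that the authors made with RMA, per the submitters' processing notes; its version is not given in the sources used here. Array number and signal over background limit precision, since there are no counts. From these values limma 3.58.1 in R 4.3.3 fitted 6 undifferentiated/spindle against 3 poorly differentiated tumors over 45037 probesets (64 array controls left out), two-sided, with Benjamini-Hochberg adjustment and calls at an adjusted p under 0.05. Of the probesets, 34945 had 1 gene symbol in the platform annotation, 932 several and 9160 none, and only the first were named. Each gene was read from its brightest probeset over the 16 samples. Named were the 15 genes with the largest change each way among those that passed without overlap, the study's 2 grade lists, the keratinocyte markers, and up to 4 members of each other of 42 lists (2 where none passed); any further gene named was chosen after its values were seen. Members and lists were chosen with earlier results of these data known. The fit was also run on simulated data, drawn as normal with equal spread in both groups. That run cannot test how the fit behaves at genes whose spread differs between the groups. Alternatives covered genotype, sex, normalization, filter, prior, test, threshold and each tumor left out. The targeted p53 gene is not reported here.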

Additional observations from a re-analysis of the deposited data

Results flagged for a closer look

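A sample stood apart from the other 5 undifferentiated/spindle carcinomas, by Dixon's criterion at the 95% level, at 14 of 140 genes examined; chance alone gives about 1 flag in 20 such groups. p53 tumor 3, the undifferentiated one, was the high sample at Epcam (6.87, the others up to 5.36), Plet1 (7.68), Csn1s1 (8.71), Spint1 (7.32), Pkp3 (7.26) and Irf7 (10.24). pRbp53 tumor 3 was high at Tfap2c (4.62, the others 3.52 to 3.63) and low at Lgals1 (14.05, the others 14.17 to 14.23) and Rgs5 (6.52, the others 8.64 to 9.33). pRbp53 tumor 2 was high at Lama5 (7.97) and Dlx3 (4.92, the others 4.27 to 4.48) and low at Mrc1 (8.08). The gap at Lgals1 was small, and the values of Tfap2c and Dlx3 lay under the array medians. p53 tumor 6 was low at H2-Aa (7.13), and pRbp53 tumor 5 was high at Plin4 (6.23).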

How the results depend on the processing

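All 1660 genes that passed kept their direction in every alternative fitted across all genes, of which the fit on brighter probesets held 1540. At 806 that rose and 821 that fell the groups did not overlap, so any fit on a subset of these tumors had to keep their direction. The mean over a gene's probesets was compared for the 98 named genes that passed, of which 95 kept their call and 0 turned sign. Mbp, Tgfa and Vegfd lost theirs (limma, adjusted p = 0.1862, 0.0587 and 0.0633). Against 1531 higher and 1795 lower probesets, the counts were 397 and 404 with the tumors of high Xist only (chosen after seeing the data), 480 and 347 with p53 tumors alone, 487 and 338 with the methods' t-test, 485 and 682 at an adjusted p of 0.01, and 2520 and 2916 at 0.1. With genotype as a covariate 1021 and 1003 passed. The tumor number in the titles as a replicate block gave 0 and 0 in limma (5532 at an unadjusted p under 0.05); same-numbered tumors did not deviate together (correlations of 0.045 and 0.013), so the numbers do not pair the samples. Leaving out each tumor in turn gave 840 to 1456 higher and 1199 to 2133 lower probesets; without p53 tumor 2 there were 898 and 1321, without p53 tumor 4, 840 and 1199. The causes were not tested. Of 98 named genes that passed, 72 did so whichever tumor was left out, 50 with high Xist only, 66 with the genotype covariate, 45 with p53 tumors alone and 38 in the methods' t-test. The differences that changed sign belonged to genes that had not passed. Irf7 turned to 0.14 with high Xist only, 0.20 with the covariate and with p53 tumors alone, and ran from -1.34 to 0.48 with each tumor left out, the latter without p53 tumor 5. S100a9 turned to -0.07 without p53 tumors 3 and 5 (chosen after seeing the data). In both genotype fits Jchain turned to -0.21, H2-Aa to -0.17, Myh1 to -1.02 and Car3 to 0.21, and Car3 ran from -2.29 to 0.09 with each tumor left out, the latter without p53 tumor 2.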
